A study of Mus musculus with 18 samples.

Results

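The genes described here are those of the suprabasal layers and the cornified envelope of mouse epidermis: every row whose symbol begins with Lce (16 genes) and 32 listed symbols, all of which were present. They make up 48 of the 21011 genes in the count table. Of these 48 members, 47 passed the filter on low counts and were tested among 16517 genes. Lce3c did not pass, with 0 to 4 counts per KR library, 0 to 2 in the KR controls and no more than 14 in any library.

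RNA was measured in dorsal skin described as taken while hair follicles were in telogen, their resting phase. The epidermis had been detached with trypsin and scraped from the dermis. KR mice (n = 4) carried a deletion of Rbpj made by K14-CreERT, a Cre expressed from a basal keratin promoter. LR mice (n = 3) had lost Rbpj through Lrig1-CreERT2, whose driver gene marks stem cells of the upper hair follicle. KN1 mice (n = 4) had lost Notch1 through a K14 driver that the labels spell K14-CreERT1. Each mutant was set against same-batch controls (2 KR controls, 3 LR controls and 2 KN1 controls), whose alleles the sources used here do not give. All 18 mice, controls included, are described as treated with tamoxifen at 8 weeks of age, and skin was taken 10 weeks later. Deletion is limited to cells in which the driver was active and to their descendants, so each library may mix deleted and intact keratinocytes. Mutant and control cohorts were named KR 1, KR 3, KR 4 and KR 5 against KR controls 4 and 6, LR 1, LR 2 and LR 3 against LR controls 2, 3 and 5, and KN1 1, KN1 2, KN1 3 and KN1 4 against KN1 controls 1 and 7, and values are given in that order.

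Keratinocytes that leave the basal layer switch from the basal keratins to Krt1 and Krt10, then make filaggrin-type proteins and loricrin, and finally replace their membrane with a cross-linked protein shell, the cornified envelope, coated with ceramide-rich lipid. Many envelope proteins are encoded side by side in the epidermal differentiation complex, and transglutaminases, proteases and lipid enzymes encoded elsewhere assemble and then shed the cornified layer. In mouse skin, Notch signalling through Rbpj is known to act in the passage of keratinocytes from the basal to the suprabasal state.

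Of the 48 members, 23 lie on chromosome 3 between 92080271 and 93399442 (GRCm38/mm10, coordinates from GENCODE M21), where they form the epidermal differentiation complex. All 16 Lce genes, Lor, Flg, Flg2, Hrnr, Rptn, Ivl and Crct1 are there. The other members lie elsewhere, among them Krt1, Krt2, Krt77 and Krt80 on chromosome 15, Krt10 on chromosome 11, the neighbours Sbsn, Dmkn and Krtdap on chromosome 7, and Klk5, Klk7 and Klk8 together on chromosome 7.

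RefSeq promoters on GRCm38.p6 were available for 42 of the 48 members, with 46 start sites between them. The 250 bases before the start are printed for 4 members: Lor and Lce1m, the envelope precursor and the Lce gene with the highest level per length, Flg, which stood on opposite sides of its controls in KR and KN1, and Sbsn, which was among the members farthest from the controls in KR. Capitals mark matches to TGGGAA (the core letters that RBPJ is known to bind), TGANTCA (AP-1) and TATAAA (the core of a TATA box), each searched on both strands. The windows are chr3:92083143-92083392 (minus strand) for Lor, chr3:93019062-93019311 (minus) for Lce1m, chr3:93273296-93273545 (plus) for Flg and chr7:30751221-30751470 (plus) for Sbsn, and each is written 5′ to 3′ in the direction of its gene.
Lor: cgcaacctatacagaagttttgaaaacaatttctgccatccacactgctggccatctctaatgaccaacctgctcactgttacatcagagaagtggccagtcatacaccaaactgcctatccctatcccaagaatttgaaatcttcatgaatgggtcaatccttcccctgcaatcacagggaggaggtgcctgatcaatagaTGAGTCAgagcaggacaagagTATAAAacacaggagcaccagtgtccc
Lce1m: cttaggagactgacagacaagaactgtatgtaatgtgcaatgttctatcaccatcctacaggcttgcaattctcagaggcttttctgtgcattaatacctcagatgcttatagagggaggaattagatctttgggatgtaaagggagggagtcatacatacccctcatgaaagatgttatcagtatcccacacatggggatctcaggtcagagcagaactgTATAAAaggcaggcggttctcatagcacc
Flg: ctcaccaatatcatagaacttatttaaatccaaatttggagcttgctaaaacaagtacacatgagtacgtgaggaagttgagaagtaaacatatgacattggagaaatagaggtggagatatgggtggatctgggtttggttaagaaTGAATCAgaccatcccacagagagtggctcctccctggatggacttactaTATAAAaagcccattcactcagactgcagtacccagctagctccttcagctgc
Sbsn: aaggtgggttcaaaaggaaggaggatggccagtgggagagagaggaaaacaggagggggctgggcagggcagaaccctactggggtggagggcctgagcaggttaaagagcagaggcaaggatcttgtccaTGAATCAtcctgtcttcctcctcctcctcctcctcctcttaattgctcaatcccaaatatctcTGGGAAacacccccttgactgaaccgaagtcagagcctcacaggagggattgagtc
Lor held an AP-1 match that began 48 bases before the start and a TATA match at 27 bases. Lce1m held a TATA match at 29 bases and neither of the other motifs. Flg held an AP-1 match at 103 bases and a TATA match at 53 bases, and Sbsn an AP-1 match at 119 bases and the 1 TGGGAA match of these 4 windows, at 56 bases. Positions count from the RefSeq start, and GENCODE M21 places the start of Flg at 93273523, inside its window.

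Over all 46 start sites of the members, TGANTCA occurred in 10 (21.7%), against 6.75% of the 32851 promoters in the table. TATAAA occurred in 11 (23.9%), against 12.4%, and TGGGAA in 13 (28.3%), against 21.6%. AACCNGTT, the letters known for the Grhl factors, occurred in 1 (2.17%), against 1.79%. The members with TGANTCA were Krtdap, Lor, Flg, Flg2, Rptn, Ivl, Sbsn and Dmkn, and none of them is an Lce gene. Neighbouring Lce genes also share upstream sequence, compared position by position without gaps. Lce1g and Lce1i were identical at 214 of the 250 positions (85.6%), and Lce1g and Lce1h at 173 (69.2%). Lce1m was identical to any other Lce gene at no more than 78 positions, and Lce1a1 to Lce1a2 at 66. Inserted or lost bases lower such counts, so low values do not show that sequence is unshared. The motif matches are letters in a window and say nothing of whether a factor is bound.

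The libraries held 8076316 to 21216169 counts, and the members took 2.66% to 7.47% of them. Suprabasal keratinocyte RNA was present in every library as labelled, with Krt10 at 6147 CPM or more (CPM, counts scaled to the library total after TMM adjustment). Notch1 fell in KN1, with a log2 fold change (here called its log2 change, mutant over control) of -0.91 ± 0.19 (SE, adjusted p = 0.0251 by edgeR's quasi-likelihood test). Whole-gene counts of Rbpj do not resolve a deleted part and did not check the labels of KR and LR. By the same test, the log2 changes of Rbpj were -0.47 in KR (adjusted p = 0.135), -0.66 in LR (0.0659) and -0.34 in KN1 (0.31). Every mutant mouse lay below its own controls for Rbpj, in KN1 as well as in KR and LR. The Notch1 call was lost without KN1 4, KN1 control 1 or KN1 control 7, with the cohort fitted alone and with the covariate for second names described next (adjusted p up to 0.163), and its sign held. Among the controls, KR control 6, LR control 5 and KN1 control 7 carry a second name in the labels, and KR control 4 and KN1 control 1 each merge a pair of sequencing runs of 1 mouse. Mitochondrial transcripts took 3.17%, 2.26% and 1.23% of the counts in these second-named controls, the highest share of each cohort. Cohort and batch, as recorded in the labels, are the same split, so levels can be compared between cohorts only with that in mind.

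Measured per kilobase of exon, members spanned more than 4 orders of magnitude. The median over the 7 controls was 8531 CPM per kb for Krt10, 6749 for Krt77 and 4814 for Lor, the main envelope protein. Dmkn, Krtdap, Sbsn and Krt1 followed, at 1920, 1895, 651 and 557 CPM per kb. The Lce family was uneven: Lce1m stood at 396 CPM per kb, the eighth of the 48 members, while the next Lce genes, Lce1a2 and Lce1a1, stood at 17.0 and 15.7, and Lce1g at 0.195 was the lowest member. Flg, Hrnr and Flg2 were low per kilobase, at 2.98, 3.14 and 20.1, and these are genes of long internal repeats: 79.2%, 69.1% and 65.3% of the 50-base words of their longest transcript recur within it. How reads that map to repeats were counted by the authors is not stated in the sources used here.

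**Figure D1:**
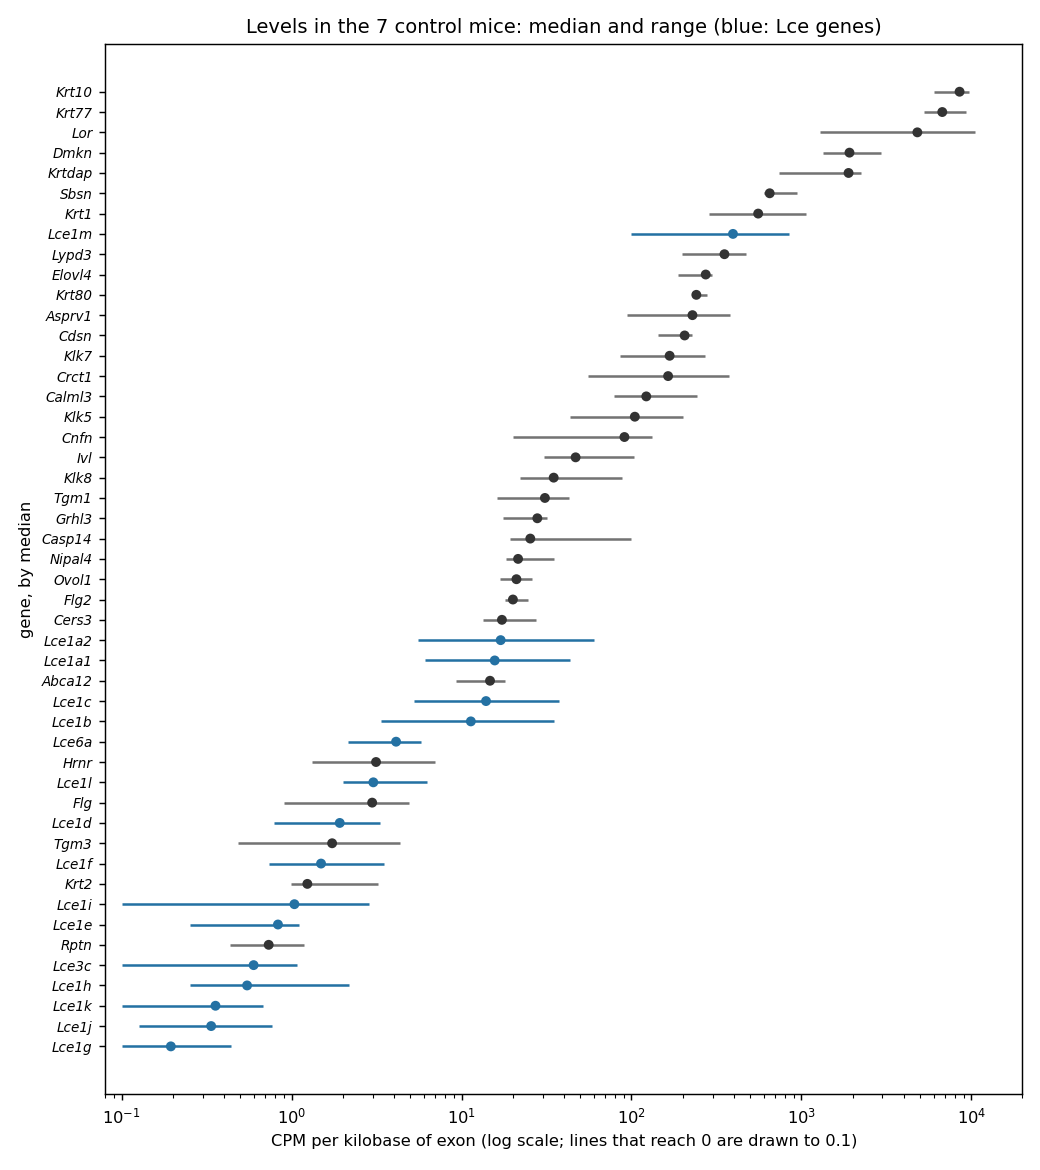
Level of each of the 48 members per kilobase of exon in the 7 control mice, on a log axis in CPM per kb, ordered by median. A line runs from the lowest to the highest control mouse, with a point at the median. Krt10 at 8531 and Krt77 at 6749 CPM per kb lead, and Lce1m at 396 stands far above the other Lce genes, which have medians of 17.0 or less.

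No member passed an adjusted p of 0.05 in any of the 3 mutants by edgeR's quasi-likelihood test, against 1.6% of all genes tested in KR, 1.12% in LR and 1.97% in KN1. The lowest adjusted p of a member was 0.0637 in KR (Abca12), 0.168 in LR (Krt80) and 0.0812 in KN1 (Lce1f). At an unadjusted p under 0.05 there were 14 members in KR, of which 12 were lower, where 22.9% of all genes reached that level. In LR there were 6, all lower (15.5% of all genes), and in KN1 there were 8, of which 6 were higher (18.5% of all genes). DESeq2 called 5 members in KR (Abca12, Sbsn, Klk8, Flg2 and Dmkn, all lower), 0 in LR and 1 in KN1 (Lce1f, higher), where it called 6.28%, 3.27% and 4.78% of all genes.

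The KR count of 0 depended on single mice. It was 3 without KR 4 (Abca12, Flg2 and Sbsn), 5 without LR 3 (Abca12, Dmkn, Flg2, Klk8 and Sbsn) and 3 without LR control 5 (Abca12, Klk8 and Sbsn). Calls over all genes rose in the same refits, from 264 in KR to 651, 438 and 1353, so these gains were not particular to the members. The LR mice enter the KR test through the shared estimate of spread. With each cohort fitted alone, 3 members passed in KR (Abca12, Cers3 and Ivl), where 4.36% of all genes did, and 0 passed in LR and KN1 (0.437% and 0.65% of all genes).

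Lce genes and the other members did not lie on the same side of their controls. The 32 other members had a median log2 change of -0.61 (KR), -0.42 (LR) and -0.30 (KN1). In KR 26 of them were below 0, in LR 27 and in KN1 22, where 46.6%, 50.5% and 48.2% of all genes tested were. The 15 tested Lce genes had medians of 0.47, 0.55 and 1.02, with 13, 11 and 13 above 0. Over all genes tested the medians were 0.04, -0.00 and 0.02. With only genes of mean CPM at least 1 kept, the Lce medians were 0.29, 0.23 and 0.72 over 11 genes. With each cohort fitted alone they were 0.19, 0.22 and 0.97 over 10, 10 and 13 Lce genes. With all 7 controls pooled they were -0.03, 0.44 and 1.53 over 14. Lce1m, the Lce gene with the highest level, was below 0 in each mutant. Across the 3 mutants, 19 members were negative in each, 12 were positive in each and 16 had mixed signs. In bulk RNA of this kind, fewer cells of a type and less RNA per cell cannot be told apart.

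By mean level, the Lce genes were lower in 1 control of each cohort than in its other controls. The mean log2 CPM over the tested Lce genes was 0.58 in KR control 6 and 1.24 in KR control 4. It was 0.30 in LR control 5 against 1.92 and 1.60 in LR controls 2 and 3, and 1.25 in KN1 control 7 against 2.37 in KN1 control 1. These 3 low controls are the second-named ones. For mutants the mean was 0.53, 1.65, 1.84 and 1.37 in KR and 2.18, 1.53 and 1.06 in LR. In KN1 it was 2.84, 3.32, 2.69 and 2.28. KR 1 thus lay below both KR controls, LR 2 and LR 3 below LR controls 2 and 3, and KN1 4 below KN1 control 1. The other mutants were above all their controls. With a covariate for the second name, the Lce medians were -1.02 in KR, 0.20 in LR and -0.51 in KN1, while those of the other members stayed negative at -0.90, -0.46 and -0.39. Leaving out the 3 second-named controls gave Lce medians of 0.48, -0.01 and 0.46 over 16 genes. The sign of the Lce median thus changed in KR and KN1 with this covariate, which was entered as a share for each mouse. Without the second-named controls it stayed positive in KR and KN1 and was -0.01 in LR. Why these settings differ was not tested.

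**Figure D2:**
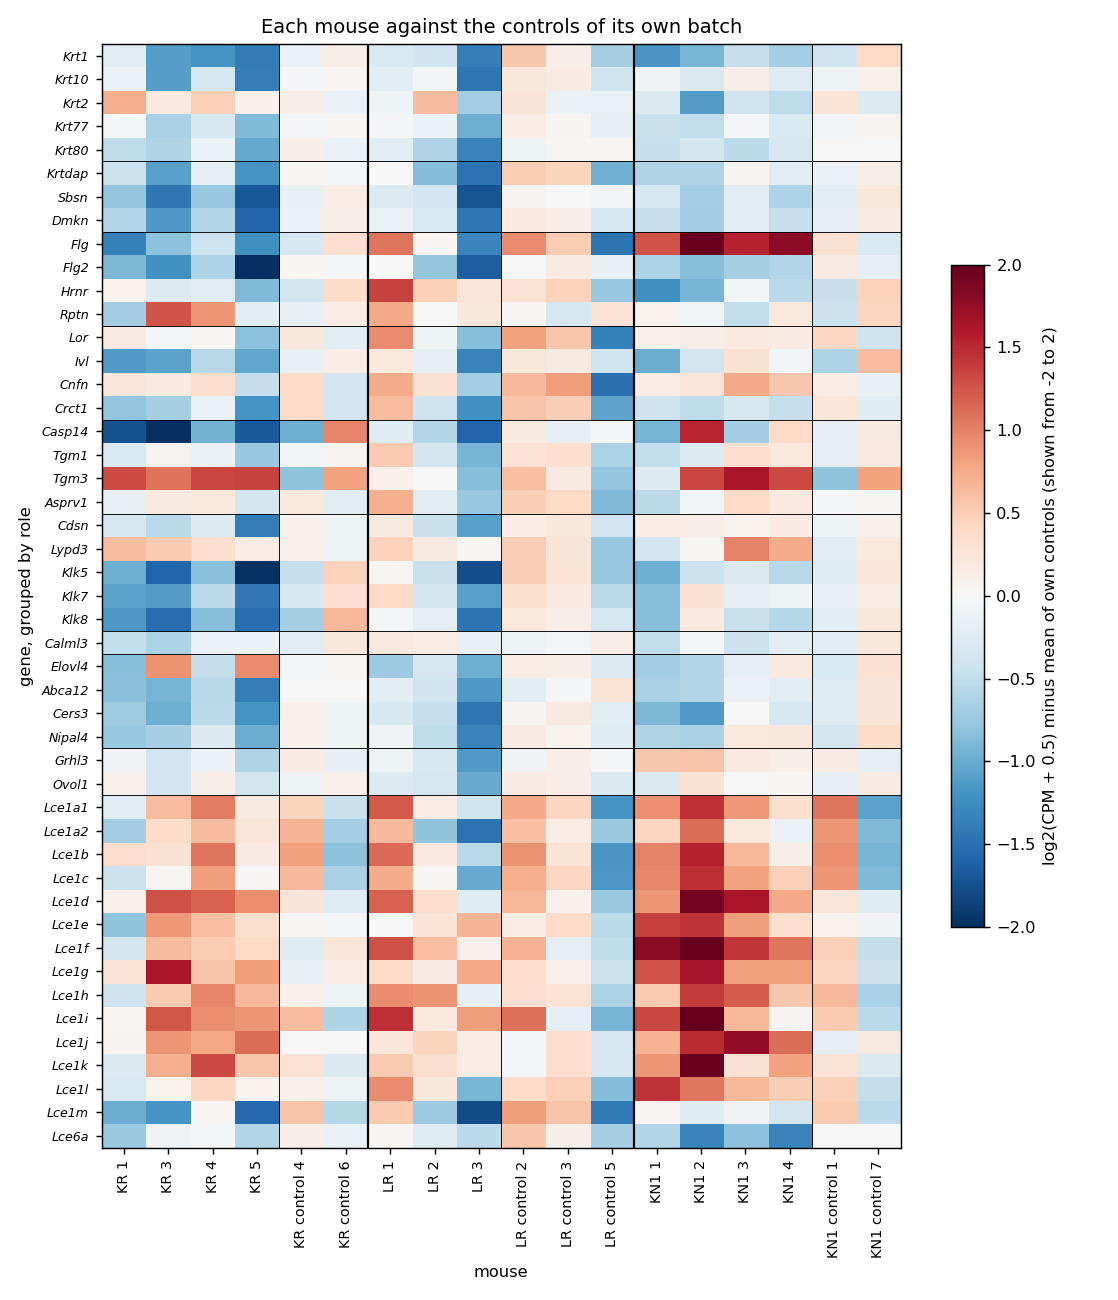
Members by mouse, coloured by log2(CPM + 0.5) minus the mean of the mouse's own controls, with mutants left of their controls in each cohort and members ordered by role. Suprabasal members are low through most of KR 5 and LR 3, while the Lce rows are low in LR control 5 and KN1 control 7.

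Among the suprabasal keratins, which build the filament network of the spinous and granular layers, 4 of 5 members were negative in KR and LR and 5 of 5 in KN1, and none passed the test. Krt1, the type II partner of Krt10, had 1953, 1059, 1004 and 862 CPM in KR mice, against 2101 and 2459 CPM in KR controls. It had 1636, 1530 and 774 CPM in LR mice, against 2908, 2204 and 1267 CPM in LR controls. In KN1 it had 1596, 1891, 2610 and 2230 CPM, against 2706 and 4729 CPM in the controls. Every KR mouse and every KN1 mouse thus lay below its controls, and in LR the groups overlapped. Log2 changes were -0.90 ± 0.37 (adjusted p = 0.163) in KR, -0.70 ± 0.36 (0.367) in LR and -0.84 ± 0.37 (0.236) in KN1.

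Krt10, the type I suprabasal keratin and the most abundant member per length, had 16331, 8220, 13848 and 6788 CPM in KR mice, against 17246 and 18035 CPM in KR controls. In LR it had 14452, 16146 and 6147 CPM, against 19719, 18801 and 12713 CPM in the controls, and in KN1 18173, 15644, 20980 and 15922 CPM, against 17844 and 20368 CPM. All 4 KR mice were lower than both controls, but KR 1 was close to them, and KR 5 and LR 3 had the lowest values of the series. The log2 changes were -0.64 ± 0.34 in KR (adjusted p = 0.266), -0.48 ± 0.33 in LR (0.513) and -0.11 ± 0.35 in KN1 (0.894). Krt77, a type II keratin that was nearly as abundant, showed the same order of mice in KR, with 19569, 12731, 15834 and 10723 CPM, against 19586 and 20122 CPM. It overlapped its controls in LR, with 17599, 16510 and 9027 CPM, against 19780, 18514 and 15530 CPM, and in KN1, with 19339, 18675, 25918 and 21239 CPM, against 25259 and 27208 CPM.

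Krt80, a type II keratin of differentiating keratinocytes, was the member with the smallest adjusted p in LR. It had 1416, 1073 and 651 CPM in LR mice, against 1540, 1687 and 1681 CPM in LR controls. It had 1136, 1058, 1468 and 794 CPM in KR mice, against 1771 and 1469 CPM, and 1055, 1131, 1013 and 1153 CPM in KN1 mice, against 1457 and 1448 CPM. No mutant mouse reached its own controls in any cohort, although KR 4 and KR control 6 nearly coincided. Log2 changes were -0.54 ± 0.23 (adjusted p = 0.18) in KR, -0.64 ± 0.22 (0.168) in LR and -0.42 ± 0.23 (0.352) in KN1. Krt2, a keratin known from mouse tail, ear and sole rather than back skin, stayed between 1.62 and 8.41 CPM in all 18 mice.

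The secreted suprabasal proteins Sbsn (suprabasin), Dmkn (dermokine) and Krtdap, encoded next to each other on chromosome 7, were negative in all 3 mutants, with role medians of -0.92 (KR), -0.66 (LR) and -0.46 (KN1). Sbsn, whose promoter is printed above, had 1498, 940, 1518 and 790 CPM in KR mice, against 2299 and 2837 CPM in KR controls. In LR it had 1873, 1746 and 689 CPM, against 2360, 2282 and 2176 CPM, and in KN1 2320, 1828, 2527 and 1922 CPM, against 2517 and 3434 CPM. The KR and LR groups did not overlap, and in KN1 KN1 3 lay just above KN1 control 1. Against controls, its log2 change in KR was -1.11 ± 0.31 (adjusted p = 0.0696, 95% interval -1.77 to -0.46), -0.66 ± 0.30 in LR (0.307) and -0.47 ± 0.32 in KN1 (0.445). Of its exon bases, 7.7% are shared with Tmem147os on the same strand, which has a row of its own.

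Dmkn had 2878, 1949, 2894 and 1435 CPM in KR mice, against 3984 and 4689 CPM in KR controls, without overlap. It had 3367, 2995 and 1358 CPM in LR mice, against 4208, 4036 and 2952 CPM, where LR 1 and LR 2 lay above LR control 5, and 4179, 3539, 4944 and 4144 CPM in KN1 mice, against 5112 and 6434 CPM, without overlap. In KR its log2 change was -0.92 ± 0.30 (adjusted p = 0.0984), beside -0.54 ± 0.29 (0.391) for LR and -0.46 ± 0.30 (0.436) for KN1. Krtdap, a secreted protein of spinous cells, had 692, 441, 822 and 413 CPM in KR mice, against 954 and 916 CPM, and a log2 change of -0.66 ± 0.40 (adjusted p = 0.335). In LR it had 971, 537 and 350 CPM, against 1386, 1336 and 504 CPM, so the control range enclosed LR 1 and LR 2.

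**Figure D3:**
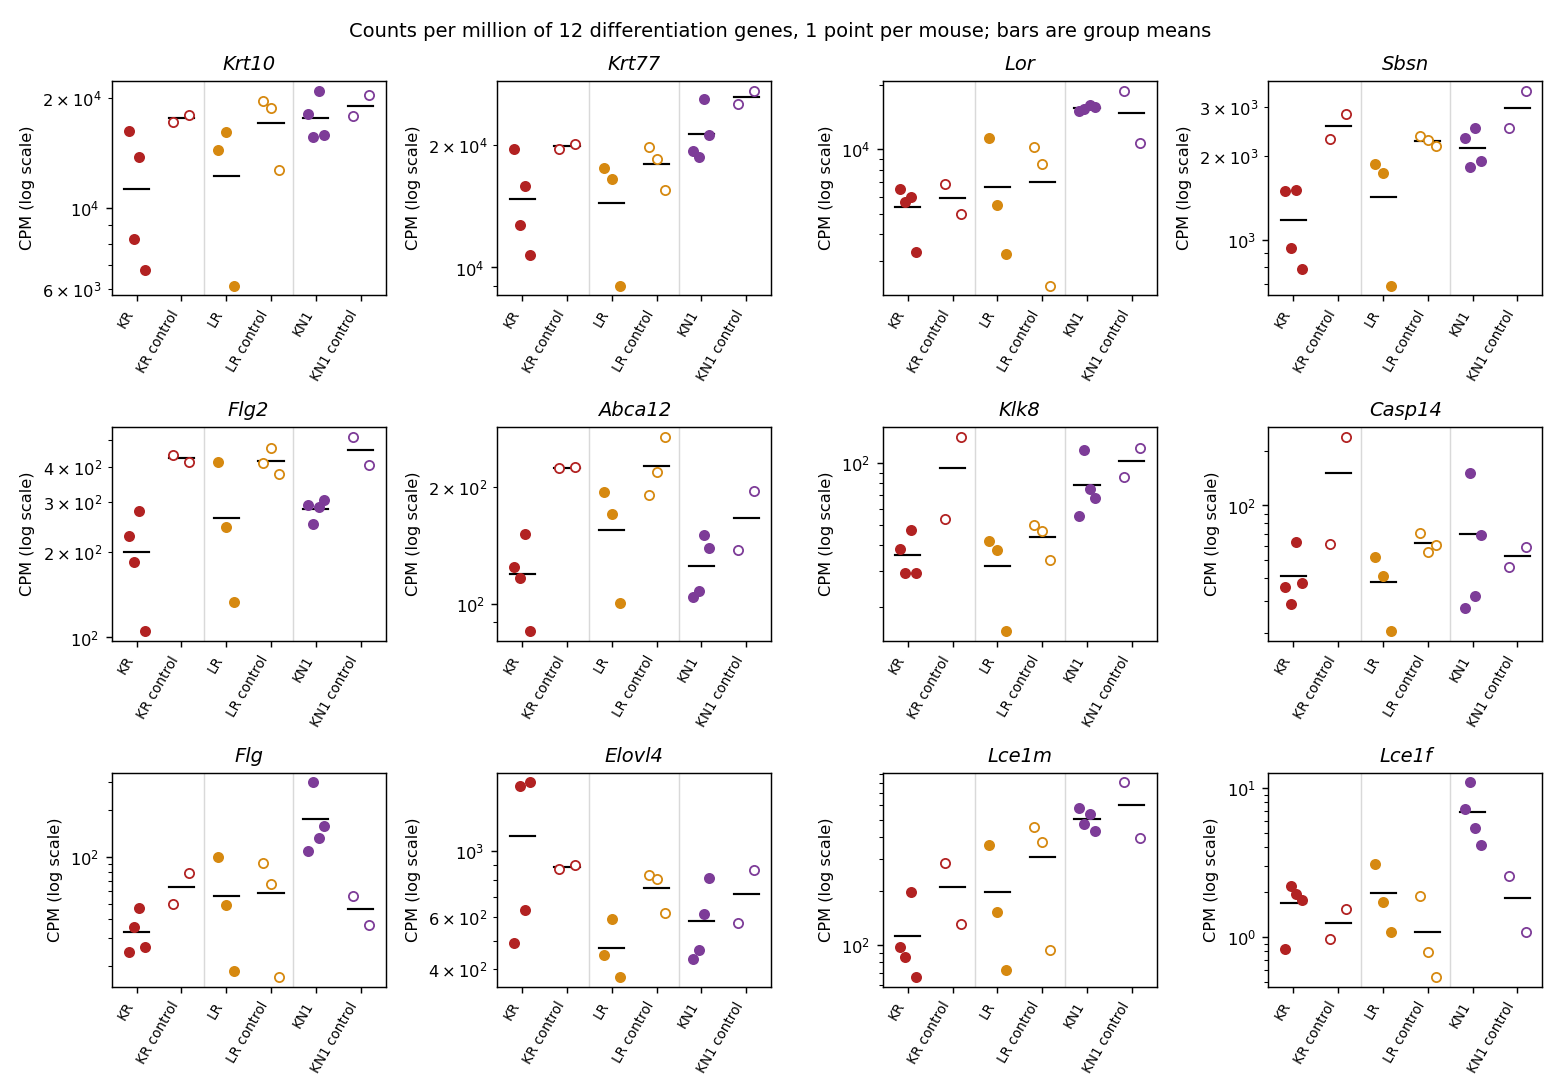
CPM of selected members in each mouse, on log axes, with mutants left of their own controls, a point per mouse and a bar at each group mean. In KR, Abca12, Sbsn and Flg2 lie below both controls in all 4 mice, and Flg lies below its controls in KR and above them in KN1.

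The S100-fused proteins, long repeat proteins of the granular layer, were below 0 in 3 of 4 members in KR, 2 of 4 in LR and 3 of 4 in KN1, and none passed the test. Flg, profilaggrin, had 24.3, 35.3, 46.7 and 26.3 CPM in KR mice, against 49.5 and 79.0 CPM in KR controls. It had 109, 300, 133 and 157 CPM in KN1 mice, against 56.1 and 36.4 CPM in KN1 controls. LR mice had 99.9, 48.8 and 18.6 CPM, against 91.9, 67.2 and 16.9 CPM. All KR mice were therefore below their controls, all KN1 mice above theirs, and both LR groups spanned the same range.

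For Flg the log2 change came to -0.95 ± 0.63 (adjusted p = 0.384) in KR, -0.07 ± 0.61 (0.974) in LR and 1.91 ± 0.71 (0.172) in KN1. The change in KR minus that in KN1 was -2.86 ± 0.94 on the log2 scale, with a 95% interval of -4.88 to -0.85 and an adjusted p of 0.551. It was the smallest adjusted p of a member in any difference test, and it did not pass. KN1 2, the mouse with the highest Flg, also had the highest summed hair matrix markers of KN1, 868 CPM, and the part of either in the other was not tested.

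Flg2, another filaggrin-type protein, did not share the Flg pattern. It had 229, 185, 281 and 105 CPM in KR mice, against 442 and 417 CPM in KR controls, and 295, 252, 288 and 305 CPM in KN1 mice, against 513 and 408 CPM. LR mice had 416, 246 and 133 CPM, against 414, 468 and 377 CPM. The KR and KN1 mice were all below their controls. The log2 changes were -1.10 ± 0.34 in KR (adjusted p = 0.0893), -0.66 ± 0.33 in LR (0.353) and -0.69 ± 0.34 in KN1 (0.291).

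Hrnr, hornerin, had 65.6, 35.2 and 30.1 CPM in LR mice, against 31.0, 35.1 and 14.8 CPM, and a log2 change of 0.70 ± 0.40 (adjusted p = 0.42). In KN1 it had 23.9, 29.7, 54.8 and 38.9 CPM, against 41.2 and 78.4 CPM, and the change in LR minus that in KN1 was 1.39 ± 0.57 (adjusted p = 0.648). Rptn, repetin, stayed at 1.81 to 9.31 CPM in all mice.

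The envelope precursors are the building blocks that transglutaminases cross-link. Lor, loricrin, is the bulk of the mouse envelope and had the highest level of this group. It had 6510, 5664, 5986 and 3317 CPM in KR mice, against 6845 and 4969 CPM in KR controls. LR mice had 11265, 5495 and 3233 CPM, against 10202, 8565 and 2302 CPM, and KN1 mice had 15148, 15521, 16205 and 15788 CPM, against 18796 and 10667 CPM. Mutant and control groups overlapped in all 3 cohorts. The 95% intervals of its log2 change ran from -1.20 to 0.92 in KR, from -1.08 to 0.93 in LR and from -0.98 to 1.16 in KN1. These intervals leave room for sizeable changes in either direction.

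Ivl, involucrin, an early scaffold protein, had 52.8, 54.8, 78.8 and 56.0 CPM in KR mice, against 105 and 129 CPM in KR controls. These groups did not overlap, and the log2 change was -0.94 ± 0.39 (adjusted p = 0.175). In LR and KN1 the groups overlapped, with 89.7, 67.3 and 30.5 CPM against 90.2, 87.7 and 58.6 CPM in LR, and 65.5, 101, 162 and 126 CPM against 85.5 and 200 CPM in KN1. Cnfn (cornifelin) and Crct1, smaller envelope-associated proteins, overlapped their controls in KR and LR. In KN1, Crct1 had all mutants below the controls, at 174 to 199 CPM against 209 and 296 CPM.

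The late cornified envelope genes encode small cysteine-rich proteins added when the envelope is nearly complete. Lce1m, the dominant family member, had 97.2, 85.3, 197 and 66.0 CPM in KR mice, against 288 and 131 CPM in KR controls. It had 363, 153 and 72.3 CPM in LR mice, against 452, 376 and 94.2 CPM, and 578, 473, 534 and 434 CPM in KN1 mice, against 806 and 392 CPM. All 3 cohorts overlapped. Log2 changes were -0.91 ± 0.64 in KR (adjusted p = 0.407), -0.65 ± 0.62 in LR (0.666) and -0.25 ± 0.65 in KN1 (0.875), and in KN1 the value was 0.36 without KN1 control 1.

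Most other Lce1 genes were above 0, the opposite side from Lce1m. Lce1f had 7.18, 10.9, 5.40 and 4.14 CPM in KN1 mice, against 2.55 and 1.09 CPM in KN1 controls, without overlap. Its log2 change in KN1 was 1.87 ± 0.54 (adjusted p = 0.0812, 95% interval 0.73 to 3.00). Lce1d had 3.46, 7.52, 6.09 and 3.10 CPM in KN1 mice, against 2.04 and 1.30 CPM, and a log2 change of 1.56 ± 0.57 (adjusted p = 0.158). In KR, Lce1d had 0.950, 2.77, 2.56 and 2.07 CPM, against 1.11 and 0.631 CPM, with KR 1 between the controls.

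In KN1, 7 of the 15 Lce genes had all mutants above both controls, a position held by 13.8% of all genes tested in that comparison. They were Lce1d, Lce1e, Lce1f, Lce1g, Lce1j, Lce1k and Lce1l. Several rest on few reads: Lce1j had 8, 18, 19 and 13 counts in KN1 mice, against 6 and 5 counts in the controls, the first of which is the deepest library, and Lce1g had 9, 14, 5 and 6 counts, against 8 and 0. In KR, Lce1j had 1, 6, 5 and 8 counts, against 2 and 1 counts in the controls, and Lce1g had 2, 14, 4 and 6 counts, against 1 and 2. At these depths no fold is given.

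Lce6a, which lies at the edge of the cluster, lay on the other side of its controls in KN1. It had 2.85, 1.50, 2.35 and 1.49 CPM in KN1 mice, against 4.49 and 4.56 CPM in the controls, without overlap, and a log2 change of -1.14 ± 0.38 (adjusted p = 0.123). Lce6a and Lce1m share no 50-base word of their transcripts with another gene. The other tested Lce1 genes share 9.12% (Lce1k) to 27.1% (Lce1i) of theirs, mostly with each other, so their single values are uncertain where the counting could split or drop reads. Lce1f shares 13.8% and Lce1d 25.4%.

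Levels of Lce1b differed between cohorts and overlapped. It was at 4.74 to 9.31 CPM in KR mice and 7.73 and 2.16 CPM in KR controls, 3.99 to 13.7 CPM in LR mice and 2.41 to 11.6 CPM in LR controls, and 12.8 to 34.8 CPM in KN1 mice and 22.6 and 5.86 CPM in KN1 controls. Cohort, batch and genotype line cannot be told apart for these levels.

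Of the 4 cross-linking and processing enzymes, 3 were below 0 in KR, 4 in LR and 1 in KN1, with median log2 changes of -0.14, -0.25 and 0.23, and none passed the test. Tgm1, the membrane-bound transglutaminase, had 62.6, 80.6, 70.8 and 45.5 CPM in KR mice, against 74.7 and 79.9 CPM, and overlapped its controls in all 3 cohorts. Tgm3, the soluble transglutaminase that is also strong in hair, had 12.1, 10.3, 12.3 and 12.4 CPM in KR mice, against 2.41 and 8.38 CPM in KR controls. All KR mice were higher, with a log2 change of 1.17 ± 0.60 (adjusted p = 0.254), and the controls of each cohort spanned a wide range, as with 1.99 and 7.16 CPM in KN1.

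Casp14, the caspase that takes part in filaggrin breakdown, had 35.7, 28.8, 62.7 and 37.5 CPM in KR mice, against 61.2 and 239 CPM in KR controls. Its log2 change of -1.86 ± 0.62 (adjusted p = 0.115) was the most negative of the members in KR, and it rested on KR control 6: without that mouse it was -0.59, with KR 4 already above KR control 4. In KN1 it had 27.2, 151, 31.97 and 68.6 CPM, against 46.1 and 59.0 CPM, and in LR 52.3, 41.1 and 20.4 CPM, against 70.6, 55.4 and 60.8 CPM. Asprv1, the aspartic protease that processes profilaggrin, had the highest level per length of these enzymes and overlapped in all 3 cohorts, with 265, 332, 340 and 229 CPM in KR mice against 342 and 253 CPM in KR controls. It had 440, 231 and 160 CPM in LR mice, against 379, 354 and 146 CPM, and 400, 556, 751 and 658 CPM in KN1 mice, against 563 and 587 CPM.

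Corneodesmosomes hold corneocytes together until kallikreins cut them. Klk8, 1 of the 3 listed kallikreins, had 38.2, 29.1, 47.1 and 29.2 CPM in KR mice, against 53.7 and 135 CPM in KR controls. Klk5 had 74.6, 48.8, 81.9 and 36.9 CPM, against 106 and 203 CPM, and Klk7 had 191, 186, 281 and 149 CPM, against 318 and 511 CPM. None of the 3 overlapped, and in each KR control 6 was far above KR control 4. The log2 changes in KR were -1.39 ± 0.39 for Klk8 (adjusted p = 0.0717), -1.35 ± 0.44 for Klk5 (0.103) and -1.04 ± 0.37 for Klk7 (0.122).

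Without KR control 6 those values were -0.61 for Klk8, -0.84 for Klk5 and -0.68 for Klk7. Klk8 also shares 24.8% of its exon bases with an antisense transcript, 2310002F09Rik, and the sources used here do not say whether counting used strand. In LR and KN1 no kallikrein had an unadjusted p under 0.05, and in LR Klk8 had 41.9, 37.9 and 15.2 CPM, against 49.8, 46.9 and 33.8 CPM. In KN1, Klk8 had 55.6, 116, 74.5 and 67.9 CPM, against 86.1 and 119 CPM. Cdsn, corneodesmosin, had 411, 357, 430 and 200 CPM in KR mice, against 551 and 492 CPM, a log2 change of -0.58 ± 0.29 (adjusted p = 0.237). Lypd3, a surface adhesion protein, was instead above both controls in all KR mice, at 662, 623, 547 and 478 CPM, against 465 and 400 CPM. It had 761, 628 and 572 CPM in LR mice, against 776, 666 and 329 CPM, and 516, 692, 1334 and 1121 CPM in KN1 mice, against 581 and 778 CPM, with overlap in both.

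Calml3, a calmodulin-like protein of differentiating epithelium, had 144, 130, 186 and 186 CPM in KR mice, against 174 and 236 CPM in KR controls. It had 136, 131 and 107 CPM in LR mice, against 112, 115 and 129 CPM, and 209, 289, 219 and 251 CPM in KN1 mice, against 251 and 344 CPM. The groups overlapped in all 3 cohorts.

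Members that make or carry barrier lipid had median log2 changes of -0.75 (KR), -0.62 (LR) and -0.35 (KN1). Abca12, the lipid transporter of lamellar granules, had 125, 117, 152 and 85.1 CPM in KR mice, against 223 and 224 CPM in KR controls. LR mice had 193, 170 and 100 CPM, against 190, 218 and 269 CPM, and KN1 mice had 104, 108, 151 and 139 CPM, against 137 and 194 CPM. KR mice were well below controls that nearly coincided, and in LR and KN1 the groups overlapped. The log2 changes were -0.90 ± 0.24 in KR (adjusted p = 0.0637, 95% interval -1.41 to -0.39), -0.55 ± 0.24 in LR (0.273) and -0.40 ± 0.25 in KN1 (0.399).

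Cers3, the ceramide synthase for very long acyl chains, had 32.2, 26.8, 36.8 and 22.8 CPM in KR mice, against 56.3 and 50.001 CPM in KR controls. LR mice had 41.0, 37.0 and 18.4 CPM, against 53.3, 58.1 and 43.6 CPM. Neither pair of groups overlapped, and the log2 changes were -0.84 ± 0.30 in KR (adjusted p = 0.125), -0.68 ± 0.30 in LR (0.283) and -0.55 ± 0.30 in KN1 (0.353). Nipal4, a membrane protein whose loss causes ichthyosis in humans, was below both controls in all KR mice, at 41.2, 44.1, 56.9 and 34.9 CPM, against 74.1 and 65.7 CPM.

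Elovl4, the elongase that makes very long chain fatty acids, behaved differently within KR. It had 492, 1655, 635 and 1702 CPM in KR mice, against 870 and 898 CPM in KR controls, so that KR 3 and KR 5 were high and KR 1 and KR 4 low. The same KR 3 and KR 5 had the highest summed CPM of the 10 sebocyte markers, 7773 and 6780, against 2079 and 3154 in KR 1 and KR 4 and 3501 and 2917 in the controls. The part of sebocyte RNA in the Elovl4 values was not tested. In LR all 3 mice were below their controls, at 448, 592 and 377 CPM, against 828, 807 and 619 CPM. The summed sebocyte markers of LR mice were also below every control, at 1746, 2606 and 2001.5 CPM, against 2936.5, 3221 and 3170 CPM. Of the 10 markers, 1 was above 0 in LR, with a median log2 change of -0.49, and none passed the test. For Elovl4, KN1 mice had 433, 466, 616 and 809 CPM, against 571 and 865 CPM, with overlap. The sebocyte sums overlapped in KN1 too, at 1778, 1985, 2173 and 2925 CPM, against 2234 and 2452 CPM.

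The transcription factors Grhl3 and Ovol1 act in terminal differentiation. Grhl3 had 76.1, 65.5 and 37.1 CPM in LR mice, against 77.9, 89.3 and 79.4 CPM in LR controls, without overlap, and a log2 change of -0.46 ± 0.21 (adjusted p = 0.309). In KR it had 74.2, 60.2, 72.0 and 51.6 CPM, against 88.0 and 69.6 CPM. KN1 mice had 80.3, 81.8, 63.1 and 60.1 CPM, against 61.9 and 49.2 CPM, and the change in LR minus that in KN1 was -0.82 ± 0.31 (adjusted p = 0.576). Ovol1 had 59.4, 56.7 and 35.5 CPM in LR mice, against 80.2, 79.2 and 58.4 CPM, and a log2 change of -0.52 ± 0.21 (adjusted p = 0.226). In KR and KN1 its 95% intervals, -0.58 to 0.33 and -0.43 to 0.47, held 0 near their centre. Ovol1 shares 19.8% of its exon bases with a pseudogene on the other strand.

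**Figure D4:**
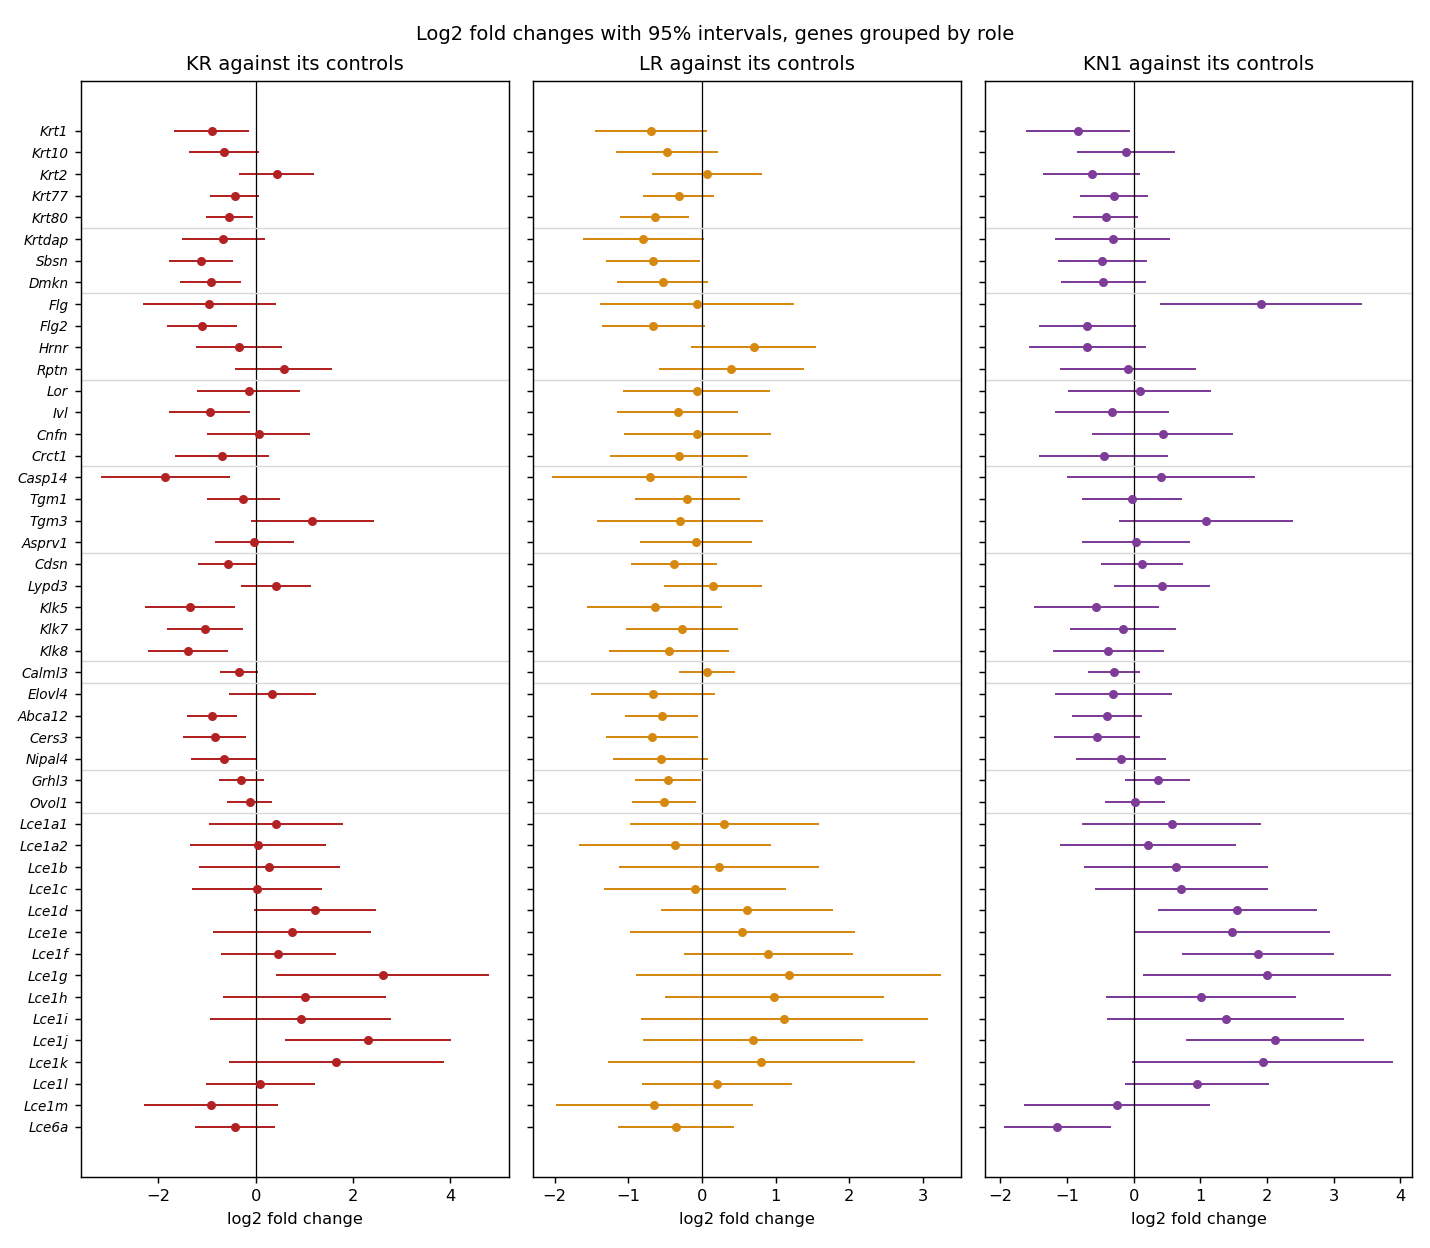
Log2 fold change of each of the 47 tested members in KR, LR and KN1 against their own controls, with members ordered by role. Lines are 95% intervals computed from edgeR's F statistic. Most suprabasal, secreted, kallikrein and lipid members lie below 0 and most Lce genes above 0, and no member has an adjusted p under 0.05.

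Counted by mouse, the members below all controls in KR were 17 of 47, where 19.5% of all genes tested had every KR mouse below every control. Those above were 4, where 19% of all genes had every KR mouse above. In LR there were 6 lower and 0 higher, where the shares of all genes were 9.29% and 10.3%. In KN1 there were 8 lower and 8 higher, where they were 14.3% and 13.8%.

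Single mice carried much of the LR picture. LR 3 had the lowest value of its cohort in 28 of the 47 tested members and LR control 5 in 18, while LR 1 had the highest value in 19. The median over members of the log2 level minus the control mean was 0.21 in LR 1, -0.18 in LR 2 and -1.01 in LR 3, against 0.30, 0.18 and -0.65 in LR controls 2, 3 and 5. The members' median log2 change in LR was -0.30, but it was 0.02 without LR 3, -0.02 without LR control 2 and -0.63 without LR 1. Without LR 3 no member had an unadjusted p under 0.05 in LR.

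In KR, KR 5 had the lowest value of its cohort in 22 members, KR 1 in 11, KR 3 in 4 and KR 4 in 0, while KR control 6 had it in 8 and KR control 4 in 2. The medians were -0.47, -0.28, -0.12 and -0.68 in KR 1, KR 3, KR 4 and KR 5. For the 32 members other than Lce they were -0.50, -0.65, -0.28 and -1.04, beside -0.03 and 0.03 in KR controls 4 and 6. These control values mirror each other because both are taken from the mean of the same controls. They do not measure the spread between controls, which was wide for single members, as with Klk8 at 53.7 and 135 CPM. The median log2 change of the 32 members stayed negative with any single mouse left out, from -0.73 without KR 4 to -0.44 without KR 5. The members' summed share of counts was 5.62%, 3.84%, 5.02% and 3.12% in KR mice, against 6.08% and 5.96% in the controls.

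The changes of the 3 mutants were also set against each other in 1 fit. No member passed in KR minus LR, KR minus KN1 or LR minus KN1 by edgeR, where 0.00605%, 0% and 0.00605% of all genes did, and DESeq2 also called 0 members in each. At an unadjusted p under 0.05 there were 0, 2 and 3 members, where the shares of all genes were 4.15%, 7.57% and 7.04%. The 2 members in KR minus KN1 were Flg and Casp14, and the 3 in LR minus KN1 were Grhl3, Hrnr and Flg. Differences between the mutants in these genes were thus not detectable with 2 to 4 mice per group, which does not show that they respond alike.

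Genes outside the list that take part in the same processes did pass the test in places. Of all genes tested, 0.902% fell and 0.696% rose in KR, 0.248% fell and 0.872% rose in LR, and 1.11% fell and 0.86% rose in KN1. Of 31 barrier lipid genes, 3 fell and 0 rose in KR, 0 passed in LR, and 2 fell and 0 rose in KN1, with medians of -0.37, -0.42 and -0.37. Among them, Abhd5, a lipase co-activator needed for the barrier lipids, fell in KR by 0.64 on the log2 scale (adjusted p = 0.0399), and Lipm, an epidermal lipase, by 1.13 (0.048). Acer1, the alkaline ceramidase of epidermis, fell in KN1 by 0.83 (adjusted p = 0.0456).

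Of 29 tested genes of the envelope scaffold, cross-linking and proteolysis, 1 fell in KR and 1 in KN1, Blmh in both, and 0 passed in LR. Blmh, the bleomycin hydrolase that degrades filaggrin peptides, had 126 ± 19.1 CPM in KR mice, against 255 ± 74.0 CPM in KR controls, a log2 change of -1.01 (adjusted p = 0.0265), and in KN1 the log2 change was -1.04 (0.0173). Of 28 transcription factors of stratification, 1 fell and 0 rose in KR, 0 passed in LR, and 0 fell and 2 rose in KN1. Casz1 and Maf rose in KN1 by 0.75 (adjusted p = 0.0178) and 1.05 (0.0412) on the log2 scale. DESeq2 called each of the changes named here for these lists.

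These calls also depended on single mice. With each of the 18 mice left out in turn, the KR calls held 10 times for Abhd5, 5 for Lipm and 15 for Blmh. Abhd5 and Lipm were lost without any 1 of KR 1, KR 3, KR 5, KR control 4, KR control 6 and KN1 4, Abhd5 also without KN1 2 or KN1 3, and Blmh without KR 3, KR 5 or KR control 6. Lipm was also lost without LR 2, LR control 2, LR control 3, KN1 1, KN1 2, KN1 3 or KN1 control 1. In KN1 the calls held 17 times for Blmh, 16 for Casz1, 7 for Maf and 5 for Acer1, and each of these was lost without KN1 control 7. Casz1 was also lost without KN1 4, and Acer1 and Maf without any KN1 mouse, KN1 control 1, LR 1, LR control 3, KR 4 or either KR control, and Acer1 without KR 1 or KR 3. The adjusted p reached 0.402 at most with a mouse left out (Blmh in KR without KR control 6), and no sign changed. Other settings ended calls as well: of 8, the KR calls held under 6 for Abhd5, 4 for Lipm and 6 for Blmh, and the KN1 calls under 4 for Blmh and Casz1 and 5 for Maf and Acer1. The covariate for the second name and the omission of the second-named controls ended all 7, with adjusted p up to 0.593 (Abhd5 in KR with the covariate).

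Lists of markers of other cells and states are given beside these values. Of the 7 basal keratinocyte markers, 4 were above 0 in KR, 3 in LR and 5 in KN1. Their sum was 33719 to 40912 CPM in KR against 29437 and 31956 CPM in the controls, 32462 to 34244 CPM in LR against 28193 to 31850 CPM, and 37066 to 43361 CPM in KN1 against 37415 and 42226 CPM. Krt14 was the 1 basal marker that rose in KR, by 0.82 on the log2 scale (adjusted p = 0.0211), and Itgb4 the 1 that rose in KN1, by 0.65 (0.0456). All 17 hair matrix and shaft markers were above 0 in each mutant, and none passed the test. Their sum was 22.0 to 863 CPM in KR against 29.1 and 446 CPM, 23.1 to 653 CPM in LR against 9.93 to 437 CPM, and 41.2 to 868 CPM in KN1 against 18.3 and 26.4 CPM, with Krt33b at 0 in both KN1 controls. By mouse it was highest in KN1 2 (868), KR 5 (863), LR 2 (653), KR 4 (544), KR control 6 (446) and LR control 2 (437). Hair RNA was thus uneven between mice that are all described as in telogen.

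Wound and stress markers were above 0 in 8 of 8 tested in KR, 7 of 8 in LR and 8 of 8 in KN1, with median log2 changes of 3.19, 1.88 and 1.30. Sprr2a3, a small proline-rich envelope protein gene outside the member list, was the 1 that rose, by 4.15 in KR (adjusted p = 0.0211) and 2.76 in LR (0.0456), and the sources used here do not say how reads shared with its close copies were counted. The summed level of these markers was 2256 to 3347 CPM in KR against 2035 and 2928 CPM, 1892 to 2622 CPM in LR against 1244 to 1839 CPM, and 2912 to 5203 CPM in KN1 against 2320 and 3488 CPM. Of the 6 Langerhans cell markers, 6 were above 0 in KR, 6 in LR and 1 in KN1, and none passed. Their sum was 1683 to 1949 CPM in KR against 797 and 1343 CPM, 1045 to 1641 CPM in LR against 722 to 1112 CPM, and 1208 to 1484 CPM in KN1 against 1671 and 2422 CPM.

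All 7 epidermal T cell markers were below 0 in KN1 (median -1.04) and in LR (median -0.70), and 3 of 7 were above 0 in KR. Cd3d, Cd3g and Trdc fell in KN1, by 1.29 (adjusted p = 0.0317), 1.41 (0.0317) and 1.59 (0.0343), and the sum of the list was 46.5 to 83.4 CPM in KN1 against 116 and 164 CPM, 43.7 to 50.7 CPM in LR against 59.0 to 128 CPM, and 58.5 to 72.7 CPM in KR against 55.5 and 70.4 CPM. All 5 melanocyte markers were above 0 in each mutant, and Pmel rose in KN1 by 1.01 (adjusted p = 0.0423), with sums of 55.4 to 82.4 CPM in KN1 against 30.3 and 34.0 CPM. Of the 23 mitochondrial transcripts, 7 fell in KR, 0 in LR and 4 in KN1. Their summed level was 9419 to 15917 CPM in KR against 18275 and 32129 CPM, 8141 to 10735 CPM in LR against 8690 to 22391 CPM, and 7285 to 10072 CPM in KN1 against 12002 and 14619 CPM.

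With each of the 18 mice left out in turn, the call held 14 times for Krt14 and 14 for Sprr2a3 in KR, 6 for Sprr2a3 in LR, 13 for Cd3d, Cd3g and Trdc, 10 for Pmel and 5 for Itgb4. Krt14 and Sprr2a3 in KR were lost without KR 3, KR 5 or either KR control, Sprr2a3 in LR without LR 3 or any LR control among others, and the 5 KN1 calls without either KN1 control among others. The covariate for the second name ended each of these calls. The part of these markers in the members' values was not tested.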

How the data were processed

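The authors deposited a table of whole-number read counts per gene for 18 mice, with no normalization. Per the submitters' processing notes, STAR, HTSeq and DESeq2 were used with the build mm10. Their versions and settings, including strand, were not stated in the sources used here. All 18 columns were matched to mice by title.

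Each mutant was compared with its own controls by edgeR 4.0.16 (R 4.3.3), using TMM factors, filterByExpr, 6 group means over all 18 mice and the quasi-likelihood F test, two-sided, with Benjamini-Hochberg adjustment over 16517 genes at 0.05. The spread for groups of 2 controls came from the whole fit (common biological coefficient of variation 0.225). CPM came from the counts and TMM factors, and errors are SE of log2 values or SD over mice. The fit was tested on simulated data. Samples are separate mice, pairs of libraries in a group differed by more than sampling noise, and p-values rest on variation between mice.

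The members, lists and alternatives were chosen with earlier results of these data known. Members are named by their roles, and any member may be named. The highest member of each role and up to 3 with the smallest adjusted p per role and comparison were to be given by mouse, and some of the second kind are given as ranges or in 1 cohort. Some results for genes outside the member list are not reported here. Alternatives were DESeq2 1.42.0, RLE factors, 2 other filters on low counts, each cohort alone, all 7 controls pooled, a block for the replicate numbers in LR, a covariate for the second names or omission of those 3 controls, and each mouse left out. Gene models were from GENCODE M21 and promoters from RefSeq (GRCm38.p6). Library depth ran from 8076316 to 21216169 counts, and no interval is given for single low counts.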

Additional observations from a re-analysis of the deposited data

Results flagged for a closer look

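In KR and KN1, the groups of 4 mice, 94 sets of member values were examined for a mouse far from the other 3. Of these sets 3 were marked, no more than the 1 in 20 or so that chance alone marks. Ivl was 78.8 CPM in KR 4, and the next KR mouse had 56.0 CPM. Lce1b was 9.31 CPM in KR 4, above 5.46 CPM in the next. Tgm3 was 10.3 CPM in KR 3, below the other 3 mice, whose lowest value was 12.1 CPM. With Ivl and Lce1b both high in KR 4, the group means of these genes rest partly on that mouse, and the cause was not tested.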

How the results depend on the processing

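With 2 to 4 mice per group, members such as Casp14 in KR, with a log2 change of -1.86, did not pass, and the cause of each shift below was not tested. Genes called in KR were 264 and became 1036 with DESeq2, 672 with the cohort alone, 809 with pooled controls, 12 with the second-name covariate and 32 without the 3 second-named controls. In LR they were 185 and became 539, 66 and 1052 with the first 3 of these, and in KN1 they were 325 and became 789, 98, 1867, 19 and 41. Members called, 0 in each mutant, became 5 in KR with DESeq2, 3 with the cohort alone and 8 with pooled controls, and in KN1 1 with DESeq2 and 9 with pooled controls. In LR no alternative called a member. The members' median became -0.92 in KR and -0.40 in KN1 with the covariate, and 0.18 in KN1 with pooled controls. Pooled controls turned Lce1m (0.48), Klk5 (0.014) and Krt2 (0.14) positive in KN1, none of them past the threshold.

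With 1 mouse left out, genes called ranged over 5 to 1353 in KR, 60 to 246 in LR and 2 to 640 in KN1. Members called ranged over 0 to 5 in KR and stayed at 0 to 0 in LR and KN1, and the medians ranged over -0.41 to -0.18, -0.63 to 0.02 and -0.10 to 0.10. Lce1m in KN1 ranged over -0.68 to 0.36. Difference tests called 0 members throughout. Over 78 gene values, 633 refits of other kinds kept sign and call in 550, gained it in 26, lost it in 54 and reversed in 3, and 1404 with a mouse left out did so in 1282, 11, 110 and 1.

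The replicate numbers 2 and 3, shared in LR, do not pair mice by the data (correlations of 0.07 and -0.08 between same-numbered deviations). With the replicate block, 163 genes and 0 members were called in LR, and the median was -0.30. KR and KN1 share too few numbers for a block.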
